A study of Mus musculus with 3 samples.

Results

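The genes described are the mouse NF-kB subunits and their inhibitors, 10 genes taken by symbol from the 50600 genes of each count table. They are the 5 subunit genes Nfkb1, Nfkb2, Rel, Rela and Relb and the 5 I-kappa-B genes Nfkbia, Nfkbib, Nfkbid, Nfkbie and Nfkbiz. All 10 were found once, by gene identifier. RNA was sequenced from T-helper 1 (Th1) cells, the interferon-gamma-producing class of CD4 T cell, labelled as primary cells of the C57BL/6NJ mouse strain. The labels name total RNA, while a linked library protocol is named for poly(A)+ RNA. The 3 libraries, biological replicates 1, 2 and 3, form 1 group with 1 donor entry, and no treatment, sex or age is given. The headers of the count tables name a time of 2 hours that the labels do not explain. Separate animals are not named, so tests between libraries measure the spread of these 3 samples, part of which may be technical.

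NF-kB proteins are dimers of Rel-family subunits that bind kappa-B sites in DNA. Rela, Rel and Relb carry activation domains, while Nfkb1 and Nfkb2 encode the precursors p105 and p100, which are processed to the DNA-binding subunits p50 and p52 and act as inhibitors in their unprocessed form. The classical I-kappa-B proteins hold dimers in the cytoplasm until they are phosphorylated and degraded. The atypical, nuclear ones bind dimers on DNA. In T cells the antigen receptor and CD28 reach the pathway through a complex that holds BCL10 and MALT1, and several of its own inhibitors are among its target genes.

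The libraries held 2950658 to 4442901 counts, and genes overlapped by exons of the other strand took 55.1%, 69.1% and 67.3% of them in replicates 1, 2 and 3. All 10 T cell markers reached 1 TPM in every library, with a summed level of 1784 to 4128 TPM. TPM is the count per exon base, scaled to the same total in each library. Of 6 Th1 markers 4 reached 1 TPM in every library, and Ifng, the defining cytokine, had 1, 2 and 0 counts. Of 6 B cell markers 5 had no count, among them Cd79b, Ms4a1 and Pax5, with 27.0 to 48.7 TPM summed over the list, all of it Cd79a. The 6 macrophage and neutrophil markers summed to 137 to 181 TPM, nearly all of it Csf1r, whose exons are overlapped from the other strand. Lyz2 and S100a9 had no count, and the dendritic list summed to 9.37 to 10.6 TPM. The NK and CD8 list summed to 3.97 to 10.7 TPM, with Cd8b1 at 34, 16 and 10 counts and no count of Ncr1 or Klrb1c. Their part in the levels below was not tested.

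Every level, those of the markers included, counts read pairs under strand setting 1, which takes the first read to have the gene's strand. The library kit is not given in the sources used here. The mitochondrial mRNAs mt-Co2, mt-Co3 and mt-Atp6, which nearly all cells carry in large amounts, had no count in any library. mt-Nd6, on the other mitochondrial strand, had 31858, 22709 and 31808 counts. Whether the setting matched the libraries was not tested further. If it was opposite, the counts of the NF-kB genes and of the markers are reads of their antisense strand. Their own mRNA reads then stand mostly uncounted or on an overlapping gene. Levels and ratios are therefore those of the deposited counts.

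Promoter windows are shown first, since several NF-kB genes are textbook targets of NF-kB. The RefSeq table (GRCm38.p6) held 11 windows, each from 250 bases before to 50 after a start of transcription, for 7 of the 10 genes, while Nfkb1, Relb and Nfkbiz had no entry. The kappa-B consensus was searched on both strands. It was present in 7 of the 11 windows and in 5 of the 7 genes, against 2779 of 32851 windows of all genes (8.46%) and 2581 of 27025 symbols (9.55%). The 250 upstream bases of 1 window with a match are printed for each of these 5 genes, 5′ to 3′ on the gene's strand, with matches in capitals. Overlapping matches appear as 1 longer run of capitals. The Nfkb2 window (chr19:46304487-46304736, plus strand) belongs to the first of 3 starts and the Nfkbid window (chr7:30422156-30422405, plus strand) to the second of 3. The others are Rel (chr11:23770970-23771219, minus strand), Nfkbia (chr12:55492648-55492897, minus strand) and Nfkbie (chr17:45555450-45555699, plus strand).
Nfkb2: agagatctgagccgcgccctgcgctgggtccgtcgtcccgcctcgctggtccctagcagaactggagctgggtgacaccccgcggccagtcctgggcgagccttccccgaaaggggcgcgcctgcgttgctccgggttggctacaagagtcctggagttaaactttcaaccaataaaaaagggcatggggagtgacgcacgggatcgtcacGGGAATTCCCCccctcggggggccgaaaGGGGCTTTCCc
Rel: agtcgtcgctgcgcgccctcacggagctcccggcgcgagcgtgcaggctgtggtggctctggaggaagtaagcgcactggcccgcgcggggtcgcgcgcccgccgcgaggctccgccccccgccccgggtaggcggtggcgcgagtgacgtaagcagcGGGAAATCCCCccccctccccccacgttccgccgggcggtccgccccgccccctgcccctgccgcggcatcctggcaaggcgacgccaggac
Nfkbia: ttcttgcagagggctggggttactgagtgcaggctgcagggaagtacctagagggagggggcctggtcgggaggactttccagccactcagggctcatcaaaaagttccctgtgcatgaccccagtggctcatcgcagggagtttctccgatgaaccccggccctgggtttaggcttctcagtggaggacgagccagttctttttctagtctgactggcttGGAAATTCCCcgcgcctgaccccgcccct
Nfkbid: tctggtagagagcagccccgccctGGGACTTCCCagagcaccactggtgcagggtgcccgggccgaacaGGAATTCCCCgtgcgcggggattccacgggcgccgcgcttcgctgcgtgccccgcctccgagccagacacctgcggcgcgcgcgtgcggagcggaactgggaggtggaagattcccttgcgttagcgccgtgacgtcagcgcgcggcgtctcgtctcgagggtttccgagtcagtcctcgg
Nfkbie: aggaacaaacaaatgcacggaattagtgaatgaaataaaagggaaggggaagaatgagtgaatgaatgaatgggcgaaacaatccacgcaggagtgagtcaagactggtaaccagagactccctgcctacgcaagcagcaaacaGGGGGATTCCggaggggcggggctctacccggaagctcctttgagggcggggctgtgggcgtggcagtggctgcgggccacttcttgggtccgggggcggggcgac

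In Nfkb2 the upstream bases held 3 matches, 2 of them overlapping at 39 and 38 bases before the start and 1 at 11 bases. Rel held an overlapping pair at 92 and 91 bases before its start. Nfkbia held 1 match, 29 bases before its start, and Nfkbie 1, at 106 bases. Nfkbid held matches 226 and 181 bases before its second start and none in the windows of its other starts. Rela and Nfkbib had no match in their windows, which says only that these letters are not there. Among the pathway genes treated below, 6 of 22 target genes with a window held a match (27.3%), namely Ltb, Bcl2l1, Tnfaip3, Il2ra, Tnfrsf9 and Irf1, as did 3 of 7 genes of negative feedback. Matches in the other lists were found for 2 of 11 receptors, 1 of 8 kinases, 1 of 8 adaptors, 1 of 4 modifiers, 1 of 3 receptor-proximal genes, 1 of the 2 further I-kappa-B genes and 0 of 6 ubiquitin ligase genes. A match is a description of the letters and not evidence of binding.

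**Figure D1:**
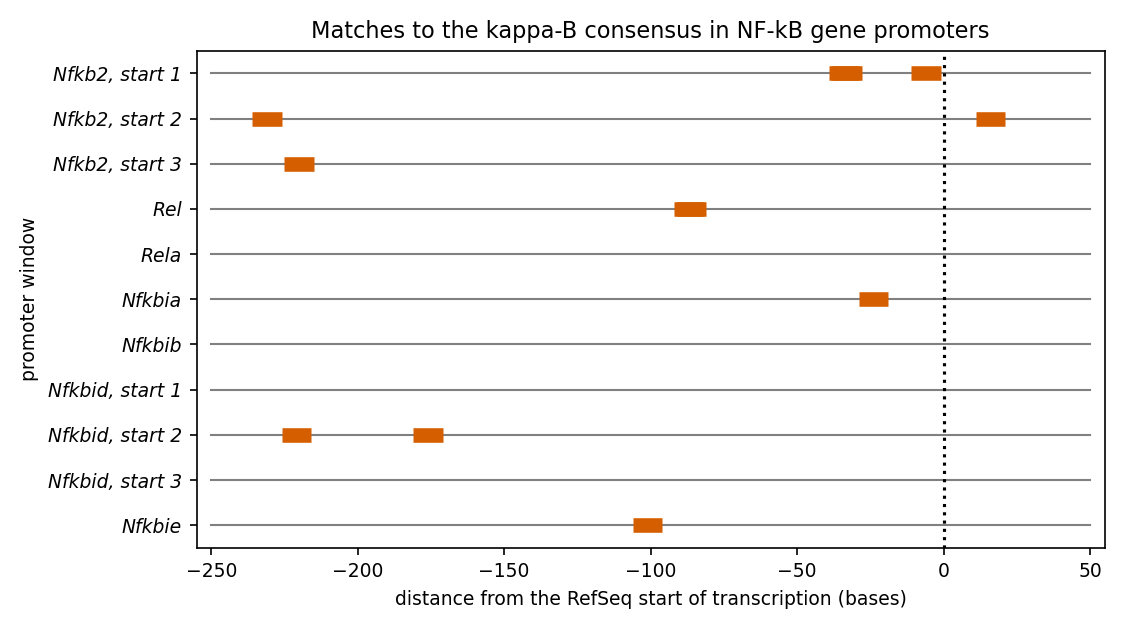
Positions of matches to the kappa-B consensus (orange) along the 11 RefSeq promoter windows of 7 NF-kB genes, with distance from the start of transcription in bases on the x axis. Matches lie in 7 windows, and the windows of Rela and Nfkbib hold none.

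All 10 genes reached 1 TPM in every library, against 21.8% of all genes and 38.7% of protein-coding genes. The lowest value of any of them was 17.5 TPM. Their median was 148, 78.5 and 87.4 TPM in replicates 1, 2 and 3, where the median over the 9469 genes with enough counts to be tested was 19.6, 12.5 and 13.2 TPM. Together they took 0.483%, 0.310% and 0.354% of all counts. By mean TPM they ran from percentile 89.2 (Nfkbie) to 99.6 (Nfkbid) of the 21764 protein-coding genes, 78 of which lay above Nfkbid.

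Among the subunits the precursor genes carried the highest levels. Nfkb1 (chromosome 3, 135584655 to 135691547, minus strand), which encodes p105 and p50, had 8058, 4122 and 4033 counts, or 305, 182 and 197 TPM in replicates 1, 2 and 3. Its large counts left little counting error, with an interval of 7883 to 8236 in replicate 1 (exact Poisson, 95%, counting error only). Its mean was 228 ± 67.2 TPM (SD, n = 3). Nfkb2 (chromosome 19, 46304737 to 46312090, plus strand), the source of p100 and p52, had 1848, 906 and 933 counts, or 257, 147 and 167 TPM, a mean of 190.2 ± 58.5. In both, replicate 1 stood above the other libraries, which lay close together.

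Rel exceeded Rela in every library. Rel (chromosome 11, 23736847 to 23770970), encoding c-Rel, the subunit most tied to lymphocytes and to interleukin-2 expression, had 3024, 1433 and 1204 counts, or 185, 102 and 94.99 TPM. Rela (chromosome 19, 5637483 to 5648130), encoding the broadly expressed p65, had 661, 279 and 350 counts, or 111, 54.8 and 75.9 TPM. The log2 ratio of Rel to Rela, on TPM with 0.1 added, was 0.73, 0.90 and 0.32, a mean of 0.65 ± 0.30 (SD, n = 3). The exact two-sided sign-flip permutation test gave p = 0.25, the smallest that 3 libraries allow. Adjusted over the 18 pairs computed it was 0.3. The summed counts gave a ratio per exon base of 1.60 (exact 95% interval 1.50 to 1.70).

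Relb, the partner of p52 in the noncanonical pathway, was the lowest subunit. It lies on chromosome 7 (19606217 to 19629438) and had 464, 169 and 175 counts, or 54.6, 23.2 and 26.5 TPM, a mean of 34.8 ± 17.2 (SD, n = 3). Replicate 1 was highest also with TMM scaling, edgeR's correction for library composition, at 90.4 scaled CPM against 60.3 and 65.3, where CPM is the count scaled to the library total. Relb lay below Rela by a log2 ratio of -1.26 ± 0.24 and below Nfkb2, the gene of its usual partner, by a factor of 5.39 per exon base (4.99 to 5.82). Both ratios had 1 sign in 3 of 3 libraries, and both were smaller with the length of its principal transcript.

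Within the subunit total, where a shift common to a library cancels, Nfkb1 took 34.8% ± 1.20 of the summed subunit TPM (SD, n = 3), Nfkb2 28.9% ± 0.820, Rel 19.1% ± 1.89, Rela 12.2% ± 1.38 and Relb 5.09% ± 0.778. The subunit sum itself was 913, 509 and 561 TPM. By counts, with no length correction, Nfkb1 took 59.1% ± 1.54.

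Among the inhibitors Nfkbid was the highest of all 10 genes. It encodes IkappaBNS, an atypical nuclear I-kappa-B that is induced by antigen receptor signals, and lies on chromosome 7 (30421732 to 30428746, plus strand). It had 4648, 1805 and 2433 counts, or 905, 410.2 and 611 TPM, a mean of 642 ± 249 (SD, n = 3). With the deposited lengths Nfkbid ranked above the other 9 genes in each library, and it made up 61.2% ± 2.09 of the summed inhibitor TPM.

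Nfkbia, which encodes I-kappa-B alpha, the classical inhibitor resynthesised after each pulse of NF-kB activity, came next. It lies on chromosome 12 (55489410 to 55492647, minus strand) and had 1580, 435 and 711 counts, or 448, 144 and 260.1 TPM, a mean of 284 ± 154. Its highest library exceeded its lowest 3.11-fold, the widest range of the family. Nfkbid lay above Nfkbia by a log2 ratio of 1.01, 1.51 and 1.23, a mean of 1.25 ± 0.25, and by a factor of 2.24 per exon base (2.14 to 2.34).

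The other inhibitors were lower. Nfkbib, encoding I-kappa-B beta, had 429, 209 and 294 counts, or 90.4, 51.4 and 79.8 TPM. Nfkbiz, encoding the nuclear I-kappa-B zeta, had 536, 226 and 238 counts over its longer exons, or 48.8, 24.0 and 27.9 TPM. Nfkbie, encoding the cytoplasmic I-kappa-B epsilon, was the lowest of the 10 by mean TPM, with 216, 88 and 72 counts, or 40.8, 19.4 and 17.5 TPM. The 72 counts in replicate 3 have an exact Poisson interval of 56.3 to 90.7. Nfkbia exceeded Nfkbib by a factor of 3.94 per exon base (3.66 to 4.25) and Nfkbie by 10.9 (9.79 to 12.2). Of the nuclear pair, Nfkbiz lay below Nfkbid by a log2 ratio of -4.25 ± 0.18 (SD, n = 3).

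**Figure D2:**
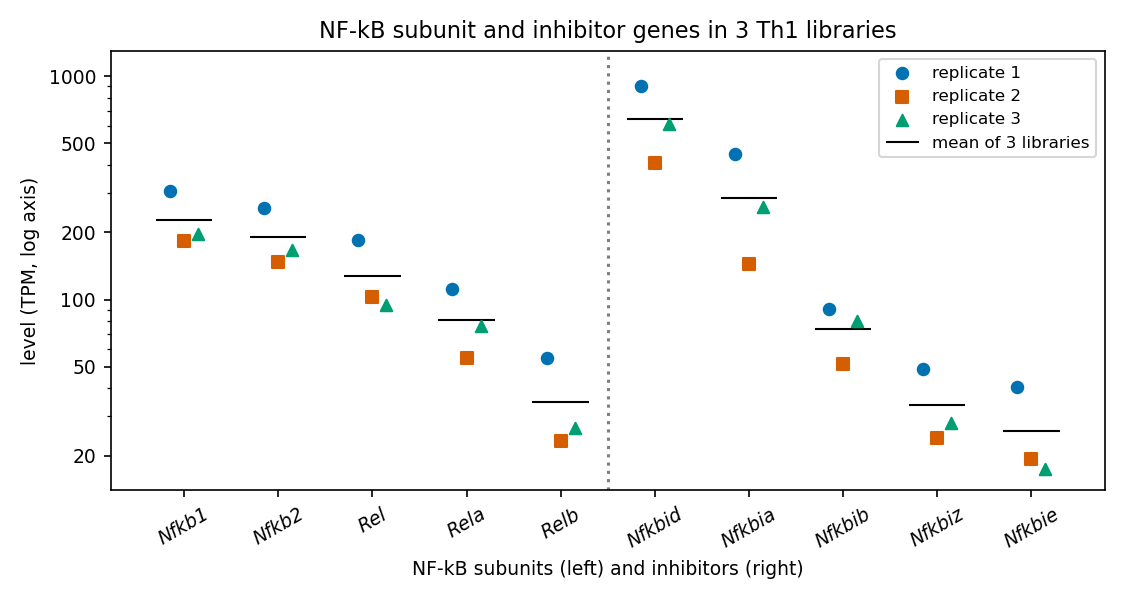
Level of each NF-kB gene in TPM (log axis) in the 3 libraries, with subunits at the left and inhibitors at the right, each ordered by the mean (horizontal line). Replicate 1 is highest for all 10 genes on this scale, and Nfkbid is the highest gene in each library.

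In order of mean TPM the genes ran Nfkbid, Nfkbia, Nfkb1, Nfkb2, Rel, Rela, Nfkbib, Relb, Nfkbiz and Nfkbie. Because neighbours were set by the means of these same 3 libraries, agreement of their ratios in sign is partly built in. With the deposited lengths, 6 of the 9 pairs of neighbours had a log2 ratio of 1 sign in 3 of 3 libraries and above its SD. The others did not differ beyond their spread, namely Nfkbia and Nfkb1 (0.21 ± 0.48), Rela and Nfkbib (0.11 ± 0.19) and Relb and Nfkbiz (0.01 ± 0.13, SD, n = 3). With 3 libraries no pair could reach a p under 0.25 in the exact permutation test. Adjusted over 18 pairs the values ran from 0.3 to 1.

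The place of Nfkb1 in this order rests on its length. The deposited length joins all annotated exons, 12061 bases, while its principal transcript in GENCODE vM21, used as an alternative chosen after the data were seen, has 4117. With such transcript lengths Nfkb1 stood at 548 ± 142 TPM against 604 ± 215 for Nfkbid and 236 ± 120.5 for Nfkbia (SD, n = 3). The log2 ratio of Nfkbia to Nfkb1 then turned to -1.32, and that of Nfkb1 to Nfkb2 moved from 0.27 to 1.75. By CPM, which has no length correction, Nfkb1 ranked first. By either length Nfkbid had the highest mean TPM, but with transcript lengths Nfkb1 lay above it in replicate 2 (453 against 400.4 TPM). Relb, whose exons join to 3885 bases against 2209 in its principal transcript, also moved. With transcript lengths its log2 ratio to Rela was -0.45 ± 0.24, and that of Nfkb2 to Relb 1.77 ± 0.24. The ratio of Nfkbib to Relb fell within its spread, at 0.41 ± 0.43, and that of Relb to Nfkbiz exceeded its spread, at 0.54 ± 0.13 (SD, n = 3).

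**Figure D3:**
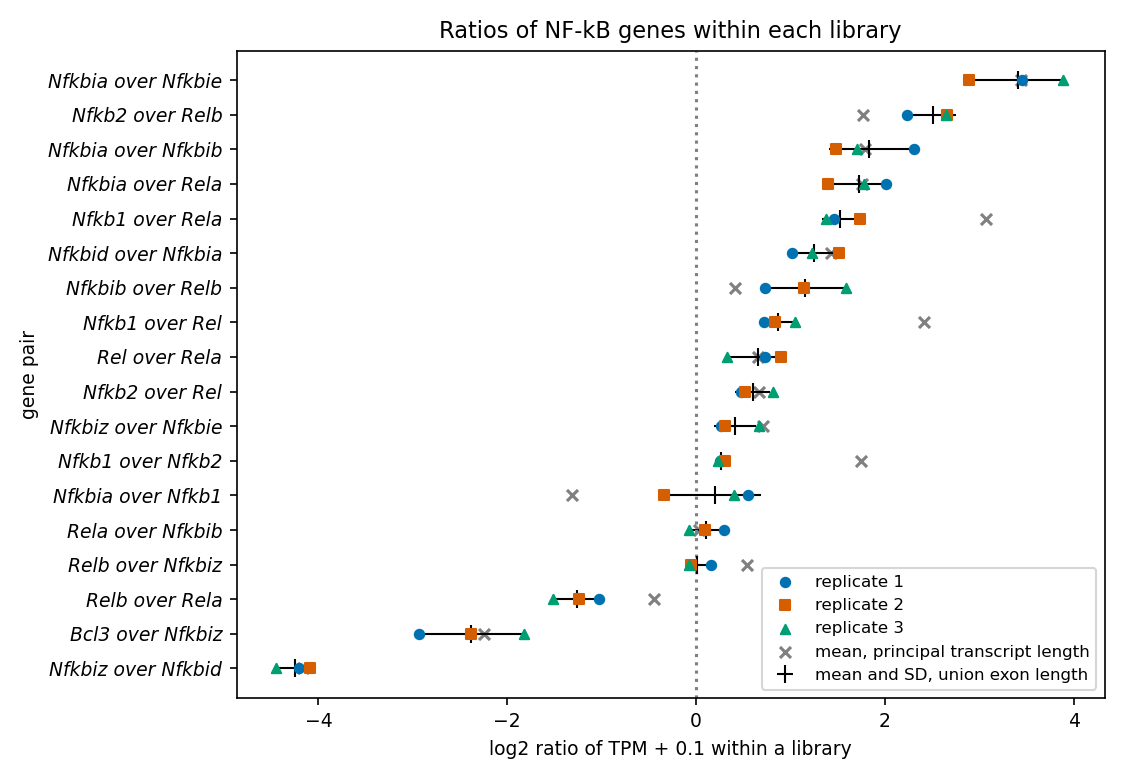
Log2 ratio of TPM + 0.1 within each library for the 18 gene pairs, with the mean and SD (black) and the mean with principal transcript lengths (grey cross). Pairs with Nfkb1 or Relb move with the length used, and Nfkbia over Nfkb1 changes sign.

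The summed inhibitor level was 1534, 649 and 996 TPM. The log2 ratio of summed subunits to summed inhibitors was -0.75, -0.35 and -0.83, a mean of -0.64 ± 0.26 (SD, n = 3). Its sign depends on the length correction, since it was 1.03 ± 0.26 by CPM and -0.01 ± 0.26 with principal transcript lengths. Replicate 2 had the highest ratio of subunits to inhibitors on all 3 scales. There Nfkbia took 22.2% of the inhibitor sum, against 29.2% and 26.1% in replicates 1 and 3.

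All 10 genes had their highest TPM in replicate 1, as did 70.9% of the 9469 genes tested. The share was 87.2% among tested genes with no exon overlapped from the other strand, which 8 of the 10 are, and 49.1% among overlapped ones. The median log2 difference of replicate 1 from the mean of the others was 0.88 over the 10 genes, 0.82 over tested genes with no exon overlapped from the other strand and 0.19 over overlapped ones. The share of counts on overlapped genes, lowest in replicate 1, moves with this difference, and its part in it was not tested. With TMM scaling 8 of the 10 were highest in replicate 1, against 42.4% of genes tested. The share was 55.6% without overlap and 24.6% with it, and the median difference over the 10 genes was 0.27. Rela and Nfkbib were then highest in replicate 3, Rela by little (130.0 against 129 scaled CPM in replicate 1). Nfkb1 showed the least spread on the TMM scale, at 1561, 1459 and 1492 scaled CPM, and Nfkbia the most, at 307, 154 and 263.

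The 10 genes varied between the libraries by more than counting noise. Each passed the chi-square test of counts at an adjusted p under 0.05, as did 59.6% of genes tested. The values ran from 8.34e-37 for Nfkbid and 7.58e-36 for Nfkbia to 0.0422 for Nfkb2. Nfkbia was lowest in replicate 2 and Rel, with an adjusted p of 4.88e-15 over edgeR TMM library sizes, in replicate 3. With DESeq2 size factors Nfkb1 and Nfkb2 no longer passed (adjusted p = 0.322 and 0.355). Without replicates 1, 2 and 3 in turn, 5, 6 and 6 of the genes passed, and only Nfkbia and Rel passed in each case. Over all genes tested in these fits, 2476 of 9677, 4299 of 10139 and 4815 of 10185 passed. Nfkbid, at 901 and 900.3 scaled CPM in replicates 1 and 3, did not pass without replicate 2 (adjusted p = 0.997). Fitted among genes without overlap, 6 of the 8 that could be tested passed, and Nfkbie and Nfkbiz did not. In that fit 2105 of all 5426 genes passed.

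None of the 10 passed the edgeR test against the dispersion trend, which 24 of the 9469 genes passed (0.253%). None had an unadjusted p under 0.05 in this test, which 610 of the 9469 genes had, and the lowest was 0.232, for Nfkbia. DESeq2 marked none of them as a dispersion outlier and 4 genes in all. The trended biological coefficient of variation, fitted over genes of like level, ran from 0.261 for Relb to 0.307 for Nfkb1. That coefficient is the spread between replicates, as a fraction of the mean, left after counting error. It describes genes of such a level and not the named gene. Nfkb1 itself had an SD of 3.47% of its mean in TMM-scaled CPM.

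Of the 10 genes, 8 had no exon overlapped from the other strand, and 2 did, Nfkb2 and Nfkbib. Among protein-coding genes tested 35.8% were overlapped. Nfkb2 shares the last 4 bases of its exons in the counted annotation with Psd, an exchange factor for ARF GTPases, on the minus strand (chromosome 19, 46312087 to 46327156). In the later GENCODE vM21 the overlap is 299 bases, all of it 3′ untranslated in both genes. Psd had 4412, 4974 and 4156 counts, above those of Nfkb2 in every library, and 517, 679 and 627 TPM. Per exon base Psd exceeded Nfkb2 by a factor of 3.10 (exact 95% interval 2.98 to 3.21). Psd was highest in replicate 2, where Nfkb2 was lowest. Reads within these 299 bases are told apart by strand alone, though the counted annotation gives only 4 of them to both genes. Reads over the rest of each gene are told apart also by position. How many Psd counts fall within the 299 bases was not tested.

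Nfkbib is overlapped at both ends. Ccer2 shares 314 bases with its end, and Sirt2, a deacetylase gene starting on the other strand (chromosome 7, 28766735 to 28788661), shares 42 bases at its start, untranslated in both. Ccer2 had 65, 75 and 61 counts and Sirt2 327, 147 and 196. Per exon base both lay below Nfkbib, by factors of 0.444 (0.379 to 0.517) and 0.310 (0.280 to 0.342). Sirt2 followed Nfkbib across the libraries, with a log2 ratio of -1.71 ± 0.10, while Ccer2 did not, at -1.12 ± 0.63 (SD, n = 3). Over all 2834 overlapped protein-coding genes tested, an opposite gene had more counts per base in 60.3%. Of the 2 NF-kB genes 1 did.

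The other genes of the I-kappa-B family, Bcl3 and Nfkbil1, were both overlapped. Bcl3, a nuclear I-kappa-B that binds p50 and p52 homodimers, had 34, 21 and 33 counts, or 6.28, 4.52 and 7.85 TPM, a mean of 6.22 ± 1.67 (SD, n = 3). Gm16175, an antisense gene sharing 161 bases with it, had 148, 125 and 118 counts, 44.3 times as many per exon base (35.1 to 56.5). Nfkbil1, a distant relative in the MHC region, had 109, 126 and 109 counts, or 34.6 ± 5.32 TPM. Gm16181, which shares 143 bases with it, had 6.25 times as many per base (5.48 to 7.13), and Atp6v1g2, a proton pump subunit, 0.930 times as many (0.807 to 1.07). Bcl3 lay below Nfkbiz by a log2 ratio of -2.38 ± 0.56. In TPM neither Bcl3 nor Nfkbil1 was highest in replicate 1, unlike the 10 genes above. Of tested genes overlapped from the other strand, 49.1% had their highest TPM in replicate 1.

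**Figure D4:**
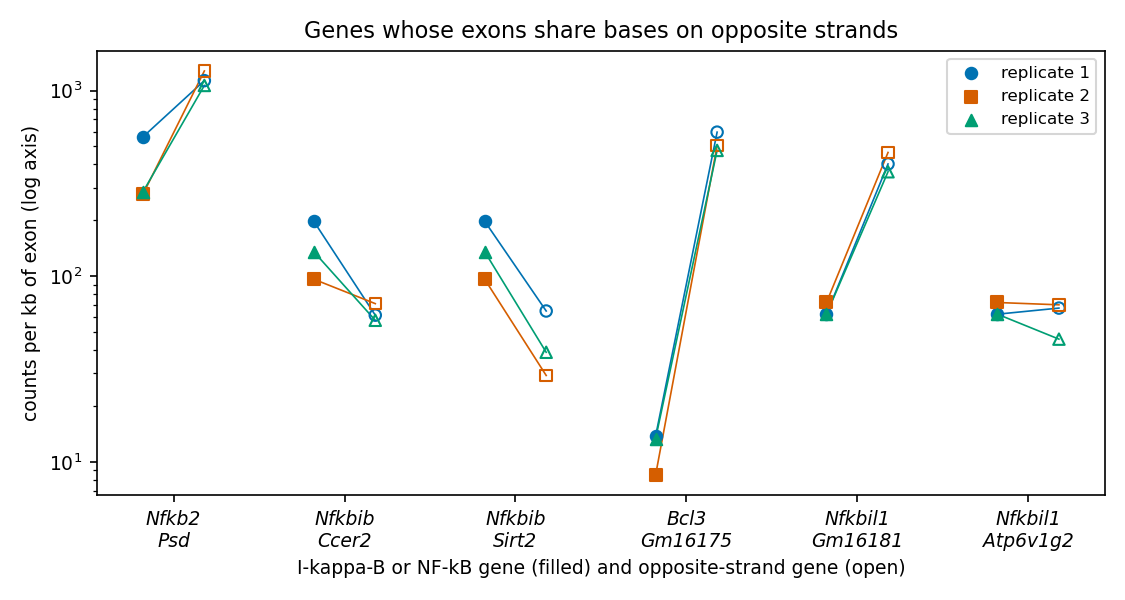
Counts per kb of exon (log axis) of NF-kB and I-kappa-B genes (filled) and the gene sharing exon bases on the other strand (open), with a line for each library. Psd, Gm16175 and Gm16181 lie above their partners in every library, and Sirt2 and Ccer2 below Nfkbib.

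The rest of the pathway was read from 9 lists of 84 genes in all, of which 76 reached 1 TPM in every library. Their median was 30.7, 15.1 and 18.6 TPM in replicates 1, 2 and 3, below that of the subunits and inhibitors. Of 75 genes with enough counts, 43 varied beyond counting noise, where 59.6% of all genes tested did, and none beyond the dispersion trend in edgeR, which 0.253% passed. In 69 of the 75 replicate 1 had the highest TPM, against 70.9% of all genes tested and 87.2% of those tested without overlap. Exons of 16 of the 84 were overlapped from the other strand.

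All 5 receptor-proximal genes reached 1 TPM in every library, and their median was 35.2 ± 11.1 TPM over the 3 libraries (SD). Malt1, a paracaspase, had 60.2 ± 19.2 TPM, Casp8 49.0 ± 14.9 and the adaptor Bcl10 35.2 ± 11.1. All 10 kinase genes reached 1 TPM in every library. Map3k14, the NIK kinase of the noncanonical pathway, led them at 49.8 ± 16.2 TPM, before Tbk1 at 31.3 ± 9.69 and Map3k7, or TAK1, at 26.8 ± 9.07. Tab1, a TAK1 partner, was lowest at 2.77 ± 1.81.

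All 9 adaptor genes reached 1 TPM in every library, led by Traf1 at 46.4 ± 18.3 TPM (SD, n = 3), the ubiquitin ligase Birc3 at 46.1 ± 13.8 and Traf3, which restrains NIK, at 24.0 ± 9.92. Traf5, overlapped from the other strand, was lowest at 3.06 ± 0.544. In the ubiquitin list 7 of 9 did, with Skp1a at 44.9 ± 22.4, Fbxw11, which recognises phosphorylated I-kappa-B, at 30.8 ± 9.43 and Cul1 at 24.1 ± 11.7. Btrc, the other recognition subunit, had 8, 4 and 8 counts, or 0.554 ± 0.205 TPM.

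All 8 genes of negative feedback reached 1 TPM in every library. Tnfaip3, which encodes the ubiquitin editor A20, had 995, 425 and 454 counts, or 62.9, 31.4 and 37.0 TPM. Otulin, which removes linear ubiquitin, had 40.6 ± 9.18 TPM, and Tnip2, an A20-binding protein, 29.8 ± 3.51 (SD, n = 3). N4bp1 was lowest at 2.79 ± 1.13. Nfkbid and Nfkbia thus lay above each of these 8 genes in every library. Of the 8 modifiers and cofactors all reached 1 TPM in every library, with the deacetylase gene Hdac1 at 59.8 ± 18.3. Commd1, overlapped from the other strand, had 29.1 ± 4.22, and Pdlim2 2.70 ± 0.696.

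Known NF-kB target genes had the highest median of the 9 lists, 43.0 ± 17.1 TPM (SD, n = 3), and 24 of 26 reached 1 TPM in every library. Tnf had 2524, 1268 and 1202 counts, or 704, 412 and 432 TPM, Myc 531, 243 and 371 TPM, and Junb, overlapped from the other strand, 388, 186 and 360.4 TPM. Many of these genes also respond to other antigen receptor signals, so the list does not read NF-kB alone. The exceptions were the chemokine genes Ccl3 (2, 0 and 2 counts) and Ccl4 (5, 0 and 2). Receptors that feed the pathway were led by Cd27 at 320.4 ± 109.9 TPM, the TNF receptor gene Tnfrsf1b at 109 ± 47.7 and Cd28 at 58.3 ± 25.3. Cd40 had no count, and 9 of 13 reached 1 TPM in every library.

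**Figure D5:**
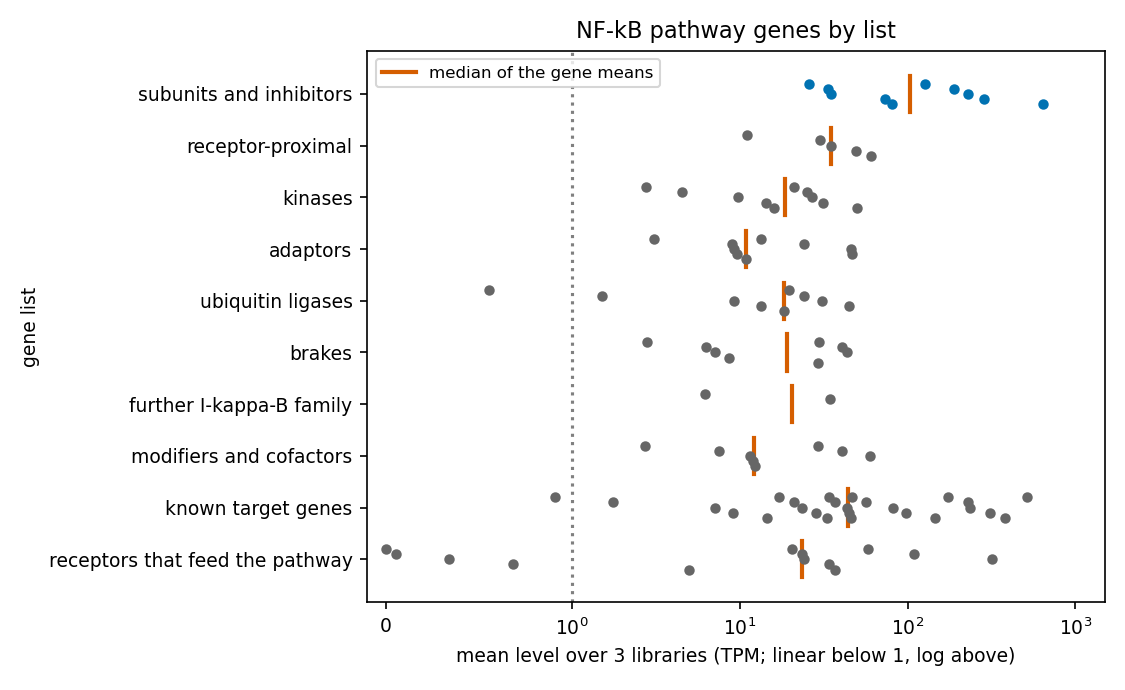
Mean level over 3 libraries in TPM of each subunit and inhibitor gene (blue) and of each gene in the 9 pathway lists (grey), with the median of these means in orange and 1 TPM as a dotted line. Nfkbid is the highest gene shown, and Cd40 is at 0.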

How the data were processed

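RNA sequencing counts were used from 3 Th1 libraries of 1 group. Per the file headers, the authors counted read pairs over exons with featureCounts 1.4.6-p4, GENCODE vM13 gene models on mm10, both reads aligned and strand setting 1, from alignments named star2. The deposited values are raw counts. TPM and CPM were computed here from the counts and deposited exon lengths. Symbols were matched by gene identifier without version (50376 of 50600 genes). Overlap was read from exon coordinates on opposite strands, at least 1 base.

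Spread was tested in edgeR 4.0.16 (R 4.3.3) on the 9469 genes kept by filterByExpr (minimum count 10), with TMM library sizes, by a chi-square test and by the deviance at the trended dispersion, both one-sided with 2 degrees of freedom and Benjamini-Hochberg adjustment at 0.05. DESeq2 1.42.0 was the alternative. Ratios used TPM + 0.1 and exact sign-flip tests. Intervals are exact 95% intervals for counting error only. Of the scripts, only the chi-square and dispersion trend tests were run on simulated counts.

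The genes named are the 10 NF-kB genes, their opposite-strand genes, and the 3 highest and 1 lowest by mean TPM of each pathway list, except some that are not reported here. Genes outside this rule (Bcl3 and Nfkbil1 partners, Ccl4, promoter matches, mitochondrial genes) were named after their values were seen. Members and lists were chosen with earlier results of these data known.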

Additional observations from a re-analysis of the deposited data

How the results depend on the processing

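Of 235 recomputed values, 204 were classed as the same. A ratio between NF-kB genes that kept its sign was classed so even where its size, or its call against its SD, changed. With principal transcript lengths these included Nfkb1 to Nfkb2 (0.27 to 1.75), Nfkbib to Relb (1.15 to 0.41) and Relb to Nfkbiz (0.01 to 0.54). The ratio of summed subunits to inhibitors (-0.64 to -0.01) was classed so too. Of the other values, 25 moved and 6 reversed. In CPM the log2 ratio of summed subunits to inhibitors was 1.03, Nfkbia to Nfkb1 -2.70, Nfkb2 to Rel -0.58 and Relb to Nfkbiz -0.36, and with principal transcript lengths, chosen after seeing the data, Nfkbia to Nfkb1 was -1.32. Relb to Nfkbiz ranged from -0.062 to 0.055 with a replicate left out, and was -0.062 without replicate 1. These follow from the lengths used, except the last, which rests on fewer samples. The summed level of the 10 genes, 1721 TPM, was 3822 in CPM and 6830 TPM over genes without overlap, which change the denominator. Of the 10 genes, 6 varied beyond counting noise when only genes without overlap were fitted, where 8 could be tested and 2105 of all 5426 passed. With a replicate left out 5 to 6 did, where 2476 of 9677, 4299 of 10139 and 4815 of 10185 genes passed without replicates 1, 2 and 3. The dispersion trend count over all genes was 24 as reported, 97 among genes without overlap, 44 without the filter, 21, 3 and 8 without replicates 1, 2 and 3, and 4 by DESeq2, with none of the 10 among them. Low counts limit the precision of Nfkbie, at 72 to 216 counts, and of Bcl3, at 21 to 34.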
